A study of Mus musculus with 12 samples.

Results

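Expression of 10 genes known from neutrophils and monocytes was read in splenic B-lymphocyte RNA: S100a8, S100a9, Lcn2, Ngp, Camp, Ltf, Mpo, Elane, Lyz2 and Csf1r. They were taken by symbol, 10 of the 24982 gene symbols listed in every library. Mice 6 weeks old gave 3 groups of 4 libraries, numbered 1 to 4 by the labels. WT mice were C57BL/J6. Eμ-Myc mice carried a Myc transgene driven by an immunoglobulin heavy-chain enhancer, active in the B lineage. The group labelled Eμ-Myc; PRPS2 KO, called the knockout group here, carried the same transgene and a knockout of PRPS2, an enzyme that makes the sugar phosphate from which nucleotides are built. No group had the PRPS2 knockout without the transgene, and how the B cells were isolated is not given in the sources used here.

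Neutrophils form in the bone marrow and load their granules in order. Promyelocytes first make azurophil (early) granule proteins such as myeloperoxidase (Mpo) and neutrophil elastase (Elane); myelocytes and metamyelocytes then make specific and gelatinase (late) granule proteins such as lactoferrin (Ltf), neutrophilic granule protein (Ngp), cathelicidin (Camp) and lipocalin-2 (Lcn2). S100a8 and S100a9 form calprotectin, an abundant calcium-binding protein of the neutrophil cytosol. Lysozyme 2 (Lyz2) is made by monocytes, macrophages and neutrophils, and Csf1r is the receptor for the growth factor that monocytes and macrophages depend on. C/EBP and PU.1 transcription factors are known for driving granule genes in the myeloid lineage. None of the 10 is a marker of B cells.

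The summed coverage ran from 1277305.5 to 1885768.9 per library. Scaled coverage is the deposited coverage divided by 1 factor per library, and every level below is on that scale unless it is called deposited coverage. The labels held for the manipulated genes. Prps2 was 16.2 to 18.3 in the knockout libraries against 97.9 to 140.0 in WT and 199 to 287 in Eμ-Myc, and Myc was 1099 to 3282 in the transgenic libraries against 226 to 346 in WT. The 11 genes of the B-cell marker list summed to 8767 to 17950 per library, and none was at 0. The 20 genes of the neutrophil cytosol and surface list summed to more than these in WT libraries 1 (26610 against 9394) and 4 (13270 against 9191), Eμ-Myc library 2 (15600 against 11940) and knockout library 1 (14890 against 9690). Most of each sum was S100a9 (13860, 8251, 9575 and 8811 in that order) and S100a8 (5480, 3403, 3930 and 3414). The other 18 genes of the list summed to less than the B-cell list in each of these libraries. S100a9 had the highest deposited coverage of any symbol in WT library 1, and its rank ran down to 492 in knockout library 4. Knockout libraries 3 and 4 stood apart from libraries 1 and 2 of their group in every member and in other marker lists: the summed level of 12 T-cell genes was 79.9 and 78.3 there against 980 and 1103, and that of 11 natural killer (NK) cell genes 32.0 and 29.7 against 793 and 603. In bulk RNA such as this, fewer cells of a type and less RNA per cell cannot be told apart.

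The promoters of 9 members were in the RefSeq table of GRCm38.p6, and 4 are shown because the results turn on the contrast between early granule genes (Mpo, Elane) and late granule genes (Ngp, Ltf). Each is the 250 bases before the start, 5′ to 3′ on the gene's strand, in lower case. Capitals mark the letters TTNNGNAA (a C/EBP-type pattern) or GAGGAA (a PU.1-type pattern) on either strand.
Mpo, chr11:87793534-87793783, plus strand: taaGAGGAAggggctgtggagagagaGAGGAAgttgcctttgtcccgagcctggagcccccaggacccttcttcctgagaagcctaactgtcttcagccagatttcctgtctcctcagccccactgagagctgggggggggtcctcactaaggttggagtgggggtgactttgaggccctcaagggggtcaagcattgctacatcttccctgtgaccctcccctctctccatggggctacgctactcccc
Elane, chr10:79886062-79886311, plus strand: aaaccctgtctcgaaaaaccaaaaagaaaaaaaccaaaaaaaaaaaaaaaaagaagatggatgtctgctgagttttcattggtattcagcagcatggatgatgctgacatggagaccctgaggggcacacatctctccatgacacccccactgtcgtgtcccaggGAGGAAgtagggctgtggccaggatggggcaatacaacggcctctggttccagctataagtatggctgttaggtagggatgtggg
Ngp, chr9:110419558-110419807, plus strand: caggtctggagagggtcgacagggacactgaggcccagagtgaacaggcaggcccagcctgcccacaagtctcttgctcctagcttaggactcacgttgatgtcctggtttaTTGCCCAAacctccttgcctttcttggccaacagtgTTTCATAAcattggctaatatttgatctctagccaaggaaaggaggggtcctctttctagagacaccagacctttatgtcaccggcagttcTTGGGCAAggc
Ltf, chr9:111019042-111019291, plus strand: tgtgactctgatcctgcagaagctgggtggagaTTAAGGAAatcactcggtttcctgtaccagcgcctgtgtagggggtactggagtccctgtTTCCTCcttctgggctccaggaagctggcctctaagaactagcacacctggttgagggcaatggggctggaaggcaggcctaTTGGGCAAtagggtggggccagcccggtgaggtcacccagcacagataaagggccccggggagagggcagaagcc

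Neither early granule promoter held the C/EBP-type letters. Of the late granule windows, Ngp held 3 matches, Ltf 2, Lcn2 1 and Camp none, so the late ones printed are those with the most. S100a8 and Lyz2 had 1 match each and S100a9 had 2. Thus 6 of the 9 windows held the pattern, against 36.8% of 32851 RefSeq promoter windows of the same length. The PU.1-type letters occurred in 5 of the 9 windows (2 matches in Mpo and S100a8, 1 in Elane, Ltf and Lcn2), against 23.3%. The E-box letters CACGTG, a sequence that Myc can bind, were in none of the 9 and in 6.0% of all windows. The patterns were searched separately, and a match is a run of letters and not a shown binding site. A window without a match is not shown to lack a site, since other spellings were not searched.

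Early granule genes differed more within WT than between the group means. Mpo, the peroxidase that makes hypochlorous acid (chr11:87793784-87804412), was 95.5, 9.84, 9.51 and 54.8 in WT libraries 1 to 4, 59.8, 125, 56.7 and 56.3 in Eμ-Myc libraries 1 to 4, and 117, 81.0, 27.6 and 9.98 in the knockout libraries. Elane, a serine protease (chr10:79886312-79888216), was 102, 9.75, 6.97 and 43.4 in WT, 54.3, 146, 45.4 and 38.3 in Eμ-Myc, and 95.9, 55.2, 17.5 and 7.10 in the knockout group. WT libraries 2 and 3 and knockout library 4 were the low ones for both genes, while no Eμ-Myc library fell under 56.3 for Mpo or 38.3 for Elane. All groups overlapped.

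Late granule genes had the same lowest library in each group as the early ones, and knockout library 3 lay under every WT library for them. Ltf, an iron-binding protein (chr9:111019292-111042766), was 2201, 156, 150.1 and 785 in WT, 463, 911, 213 and 195 in Eμ-Myc, and 882, 726, 80.9 and 21.2 in the knockout group. Ngp (chr9:110419808-110423012) was 4768, 505, 494 and 2384 in WT, 1363, 2616, 647 and 641 in Eμ-Myc, and 2343, 1875, 255 and 69.7 in the knockout group. WT library 1 was the highest of all 12 for both genes and knockout library 4 the lowest, and all groups overlapped. WT libraries 2 and 3 were near Eμ-Myc libraries 3 and 4 in Ltf, although their Mpo was lower. Camp, an antimicrobial peptide precursor (chr9:109847377-109849456), was 2567, 328, 279 and 1339 in WT, 698, 1722, 433 and 370.4 in Eμ-Myc, and 1238, 896, 179 and 43.4 in the knockout group. Lcn2, which binds bacterial siderophores (chr2:32384637-32387739), was 2919, 197, 191 and 1134 in WT, 603, 1287, 252 and 238 in Eμ-Myc, and 1244, 839, 99.8 and 28.7 in the knockout group. Both followed the order of Ngp and Ltf in that WT library 1 was highest and knockout library 4 lowest.

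The calprotectin genes varied together, in each group over a narrower range than the late granule genes. S100a9 (chr3:90692630-90695721) was 13860, 3814, 3942 and 8251 in WT, 5523, 9575, 3489 and 3228 in Eμ-Myc, and 8811, 6146, 1690 and 629.9 in the knockout group. S100a8 (chr3:90669071-90670034) was 5480, 1695, 1627 and 3403 in WT, 2241, 3930, 1580 and 1498 in Eμ-Myc, and 3414, 2492, 815 and 304 in the knockout group. Within each library S100a8 was 38.8% to 48.2% of S100a9, so that the pair kept nearly the same proportion while its level changed by more than the group means did. Knockout libraries 3 and 4 lay under every other library for both genes, and libraries 1 and 2 of that group lay inside the WT range.

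Of the monocyte genes, Csf1r followed the granule genes less closely than Lyz2 did. Lyz2 (chr10:117277541-117282272) was 3954, 2089, 1804 and 2270 in WT, 1522, 2615, 974 and 671 in Eμ-Myc, and 1972, 2021, 342 and 217 in the knockout group. Csf1r was 298, 220, 307 and 152 in WT, 259, 201, 250 and 98.2 in Eμ-Myc, and 397, 273, 42.2 and 49.6 in the knockout group. WT library 1, the highest of WT for the other 9 members, was not the highest for Csf1r, and WT library 4, high in granule genes, was the lowest. Knockout libraries 3 and 4 were the lowest of all 12 for both genes, and the groups overlapped. Lyz2 shares much of its sequence with Lyz1, and how reads common to both were assigned is not given in the sources used here. Lyz1 held 0.134% to 0.626% of the Lyz2 coverage in each library.

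**Figure D1:**
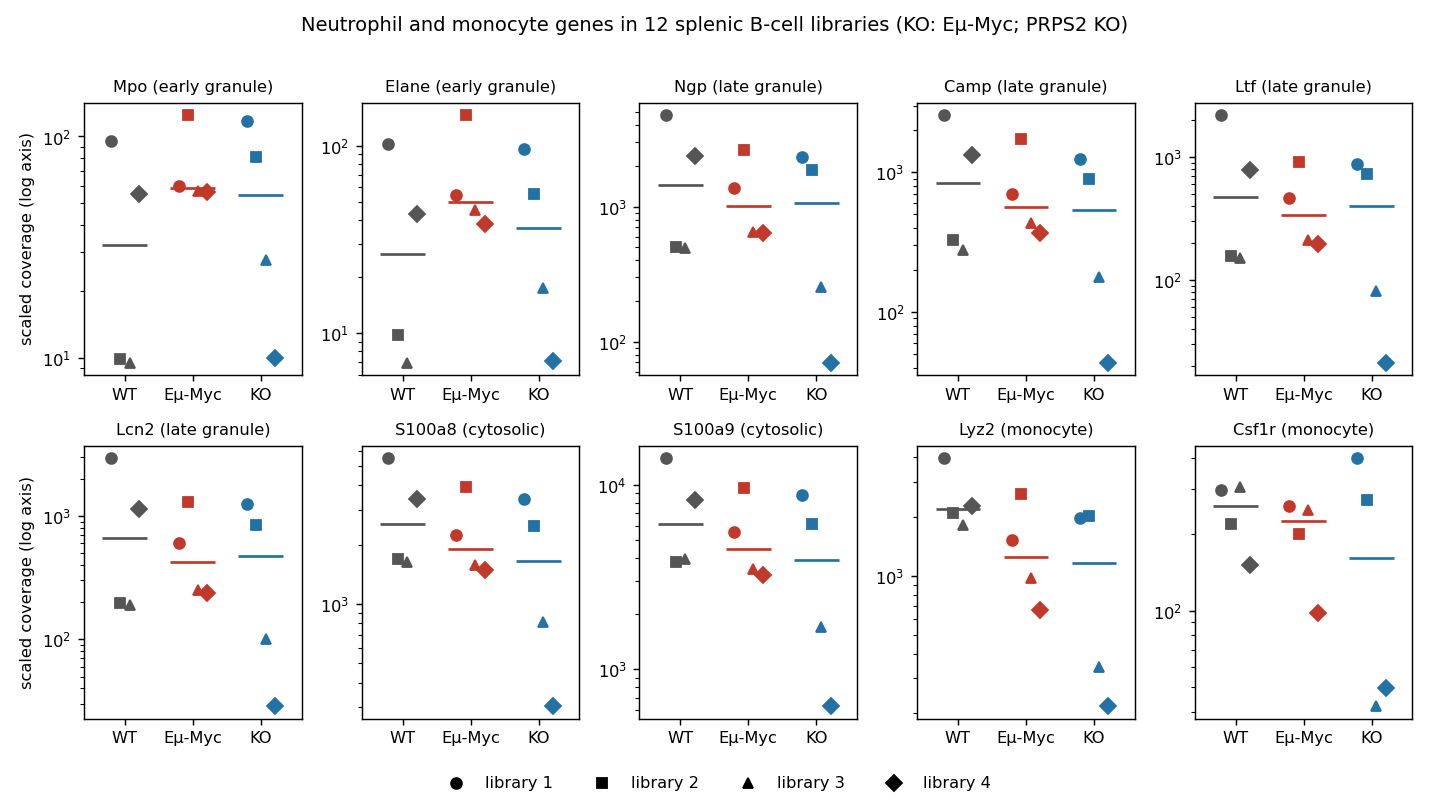
Scaled coverage (log axes, no unit) of the 10 genes in the 12 libraries, with 1 panel per gene, 1 marker shape per library number and a horizontal line at the group median (n = 4). WT libraries 2 and 3 are low for Mpo and Elane, and knockout (KO) libraries 3 and 4 are low in most panels.

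Across the 3 comparisons no member passed the test, in either direction. Each comparison was fitted with limma on log2(scaled coverage + 0.5) over all genes tested, with Benjamini-Hochberg adjustment, and all 10 members were tested each time. In Eμ-Myc against WT, 0 of 10 members were called and 0 had groups that did not overlap, where 55.1% of the 12723 genes tested were called and 51.4% did not overlap. The knockout group against WT gave 0 and 0, where 29.3% and 37.1% of all genes did. That count of called genes (3716) rests on single libraries: it was 600 to 1256 when any WT library or knockout library 3 or 4 was left out, and 6633 without knockout library 1. Against Eμ-Myc it gave 0 and 0, where 0.00797% of genes (1 gene) and 1.53% did. At an unadjusted p under 0.05 the count was again 0 of 10 in each comparison, against 60.7%, 50% and 0.964% of all genes.

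With all libraries the early granule genes had a positive and the other members a negative value against WT, with wide intervals. For Mpo the log2 fold change in Eμ-Myc against WT was 1.37 (SE 0.73, 95% interval -0.29 to 3.04, limma adjusted p = 0.141), from a mean of 74.4 ± 33.7 (SD, n = 4) against 42.4 ± 41.3. For Elane it was 1.34 (SE 0.82, interval -0.52 to 3.21, limma adjusted p = 0.192). The late granule genes ran from -0.36 (Lcn2) to -0.18 (Camp), with intervals that reach 1.56 to 1.77 upward and -1.92 to -2.49 downward. S100a8 and S100a9 were at -0.33 (interval -1.33 to 0.68) and -0.38 (interval -1.48 to 0.71). Lyz2 came nearest to the threshold, at -0.92 (interval -1.86 to 0.01, limma adjusted p = 0.0849), and Csf1r was at -0.31 (interval -1.08 to 0.46). The median over the 10 members was -0.31, beside -0.009 over all genes tested. The signs rested on single libraries: without WT library 1, Ngp (0.39), Camp (0.42), Ltf (0.46), Lcn2 (0.41) and S100a8 (0.02) were positive too. That removal let the limma test call Mpo (1.98, adjusted p = 0.0213) and Elane (2.04, adjusted p = 0.0274), and without Eμ-Myc library 2 it called Lyz2 (-1.27, adjusted p = 0.0158). Over all genes tested, 6468 of 12556 were called without WT library 1 and 6857 of 12529 without Eμ-Myc library 2. Over all alternatives of this comparison the members' adjusted p ran from 0.0158 to 0.999.

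Both comparisons with WT share the 4 WT libraries, so their values stand side by side only. In the knockout group against WT, Mpo was at 0.59 (interval -1.68 to 2.86) and Elane at 0.27 (interval -2.12 to 2.66). The late granule genes lay between -1.34 and -1.29, with Ltf at -1.29 (interval -4.44 to 1.86), and S100a8 and S100a9 at -1.15 and -1.22 (interval of S100a9 -3.16 to 0.72). These values moved with the knockout library left out, from -2.01 without library 1 to -0.32 without library 4 for Ngp, from -2.05 to -0.27 for Ltf, from -1.78 to -0.51 for S100a9 and from 0.08 to 1.25 for Mpo. Elane was at -0.30 without knockout library 1. Lyz2 was at -1.71 (interval -3.44 to 0.02, limma adjusted p = 0.103) and Csf1r at -0.93. The members' median was -1.26, beside -0.015 over all genes. The limma test called Lyz2 without knockout library 1 (-2.18, adjusted p = 0.0386), where the calls over all genes were 6633 of 12479. Over all members and alternatives the limma adjusted p ran from 0.000242 to 0.98. Its low end came with both knockout libraries 1 and 2 left out, a selection made after the levels had been seen.

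In the knockout group against Eμ-Myc all 10 members had a negative log2 fold change, and none was called. Values ran from -0.62 for Csf1r (interval -2.38 to 1.14) to -1.12 for Camp (interval -3.53 to 1.30), with Elane at -1.07 (interval -2.90 to 0.77), Ngp at -1.06 and Mpo at -0.78 (interval -2.44 to 0.88). The median was -0.91, beside -0.029 over all genes, and every limma adjusted p was 0.9999. The intervals include both no difference and a change of several fold, so that these data do not show that the groups are alike. The values depended on which knockout libraries entered. With libraries 3 and 4 left out, 0 of 10 members were called against Eμ-Myc and all 10 values were positive, from 0.25 to 1.14, where 524 of 12436 genes were called. With libraries 1 and 2 left out instead, 10 of 10 were called, from -3.12 to -2.04, where 3495 of all 12181 genes tested were called. Both selections were made after the levels had been seen and pick libraries by the measured outcome, so neither is a test of the genotype.

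**Figure D2:**
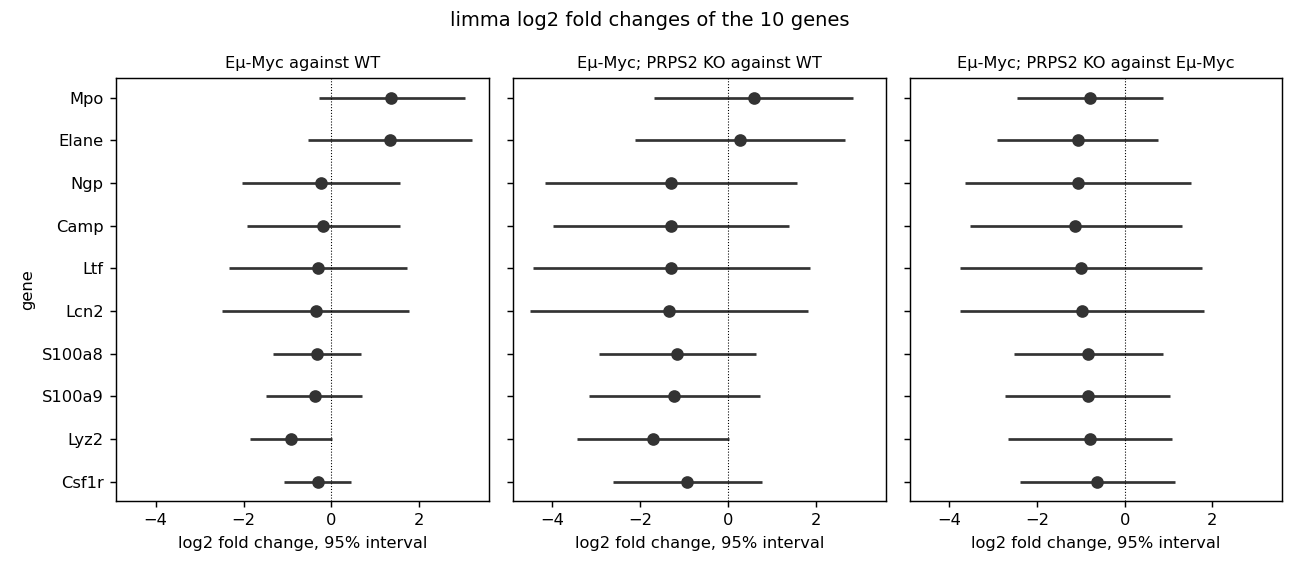
limma log2 fold changes (points) with 95% intervals (lines) for the 10 genes in the 3 comparisons of 4 libraries with 4. Every interval includes 0; with all libraries in, Mpo and Elane are the only members with a positive value against WT.

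The spread between libraries of a group was large for these genes. The SD of log2 scaled coverage in WT was 1.56 to 1.94 for the 6 granule genes, against a median of 0.22 over 12681 genes, which placed them at the 99.2nd to 99.8th percentile. S100a8, S100a9, Lyz2 and Csf1r had SDs of 0.84, 0.90, 0.49 and 0.47 there. In Eμ-Myc the 10 members ran from 0.56 (Mpo) to 1.16 (Lcn2), again with a median of 0.22 over all genes. The knockout SDs ran from 1.58 (Mpo) to 2.58 (Ltf), with a median of 0.39. From the lowest to the highest library of a group, Ltf varied 14.7-fold in WT, 4.67-fold in Eμ-Myc and 41.6-fold in the knockout group, while Csf1r varied 2.02-fold, 2.64-fold and 9.41-fold.

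**Figure D3:**
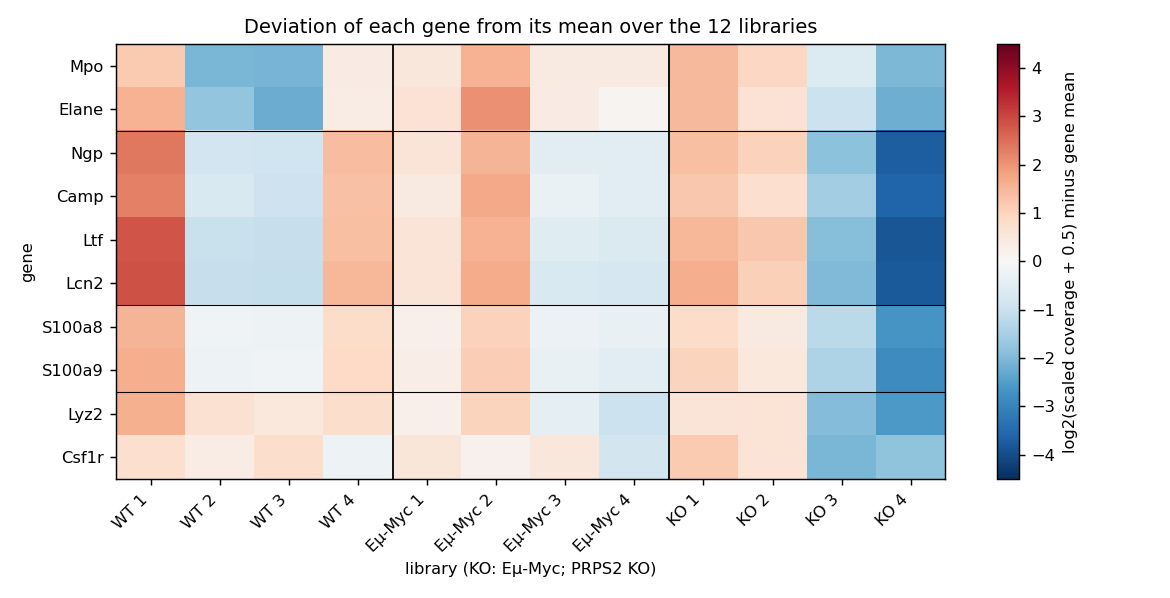
Deviation of each gene (rows) in each library (columns) from its mean over the 12 libraries, on the log2(scaled coverage + 0.5) scale; red is above and blue below. WT library 1 is high for the granule genes, and knockout (KO) libraries 3 and 4 are low for all 10.

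Set against each other within the same library, early granule genes were higher relative to late ones in both transgenic groups. Such a ratio does not depend on the scaling of the library; it compares libraries, not the absolute levels of the genes. Mpo as a percentage of Ltf was 4.34, 6.32, 6.33 and 6.98 in WT libraries 1 to 4, 12.9, 13.7, 26.6 and 28.8 in Eμ-Myc, and 13.3, 11.2, 34.2 and 47.1 in the knockout group. Every transgenic library was above every WT library. The WT ratio stayed in that narrow band although Ltf itself varied 14.7-fold. In both transgenic groups the ratio was higher in libraries 3 and 4, which had less Ltf than libraries 1 and 2. Ltf was 463, 911, 213 and 195 in Eμ-Myc libraries 1 to 4, and 882, 726, 80.9 and 21.2 in the knockout libraries. Against WT the median ratio was 3.19-fold higher in Eμ-Myc and 3.75-fold higher in the knockout group. The median of each transgenic group (23.7% in the knockout group) falls in the gap between its libraries 1 and 2 and its libraries 3 and 4. Both medians therefore depend on which libraries are included. At similar Ltf, WT libraries 2 and 3 (156 and 150.1) had Mpo at 9.84 and 9.51, and Eμ-Myc libraries 3 and 4 (213 and 195) had Mpo at 56.7 and 56.3. The difference was smaller at higher Ltf. WT library 4 (Ltf 785) had Mpo at 54.8, knockout library 2 (726) at 81.0 and Eμ-Myc library 2 (911) at 125. Elane as a percentage of Ltf was 4.65, 6.26, 4.64 and 5.53 in WT, 11.7, 16.0, 21.3 and 19.6 in Eμ-Myc, and 10.9, 7.60, 21.7 and 33.5 in the knockout group, and its groups separated in the same way.

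The separation held for all 8 pairs of an early with a late granule member, in both transgenic groups against WT. These pairs are not independent of each other. With the group means removed, r was 0.994 to 0.998 among the late members and 0.988 between Mpo and Elane. The 8 pairs therefore largely repeat 1 contrast. Mpo as a percentage of Ngp had a WT range of 1.92 to 2.30, against 4.39 to 8.78 in Eμ-Myc and 4.32 to 14.3 in the knockout group. Among the 12719 tested genes other than the late members, the ratio to all 4 late members was higher in every Eμ-Myc library than in every WT library for 1.85%, and 0.426% of 12688 were higher in the same way in the knockout group. Mpo and Elane are in both counts. Of all 45 pairs of members, 14 separated Eμ-Myc from WT, and 14 separated the knockout group from WT. They were the 8 early with late pairs, the 4 pairs of an early gene with S100a8 or S100a9, and the 2 pairs of an early gene with Lyz2, out of 4 with a monocyte gene. Over all genes tested, the ratio to S100a8 separated Eμ-Myc from WT for 12.3%, that to S100a9 for 10.8%, that to Lyz2 for 27.9% and that to Csf1r for 18.2%, and the knockout group from WT for 5.29%, 4.56%, 28.1% and 6.49%. None of the 6 pairs of late genes, 8 pairs of a late with a cytosolic gene or 8 pairs of a late with a monocyte gene separated a transgenic group from WT, where over all genes tested 2.09% to 3.64% of ratios to a late member did so in Eμ-Myc and 0.544% to 1.32% in the knockout group. Lcn2 was 116% to 145% of Ltf in all 12 libraries. None of the 45 pairs separated the knockout group from Eμ-Myc. No share of ratios over all genes is given for that comparison, so this count cannot be set against one. Of single genes, 1.53% did not overlap there. The pattern was chosen after the values had been seen, and therefore no p-value is given for it.

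The other azurophil genes did not all follow Mpo and Elane. Relative to Ltf, the serine proteases Prtn3 and Ctsg were higher in every transgenic than in every WT library, with medians of 15.6% and 7.27% in Eμ-Myc and 16.5% and 8.69% in the knockout group, against 5.41% and 2.17% in WT. Ctsg separated both groups from WT over all 4 late members. Prtn3 did so in Eμ-Myc, but in the knockout group it overlapped WT relative to Ngp (lowest 2.53% against a WT highest of 2.89%) and Camp (5.30% against 5.36%). Ms4a3, a marker of granulocyte and monocyte progenitors, separated Eμ-Myc from WT relative to Ltf (1.84% to 3.11% against 0.376% to 1.48%) and Lcn2, and overlapped relative to Ngp and Camp. In the knockout group Ms4a3 overlapped WT relative to Ngp, Camp and Ltf and was higher relative to Lcn2 (lowest 1.19% against a WT highest of 1.12%). Fcnb, a ficolin, was 6.14% to 6.44% of Ltf in WT, 6.40% to 8.14% in Eμ-Myc and 4.37% to 6.28% in the knockout group. Prss57, Cst7 and Gusb relative to Ltf overlapped in both comparisons with WT.

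**Figure D4:**
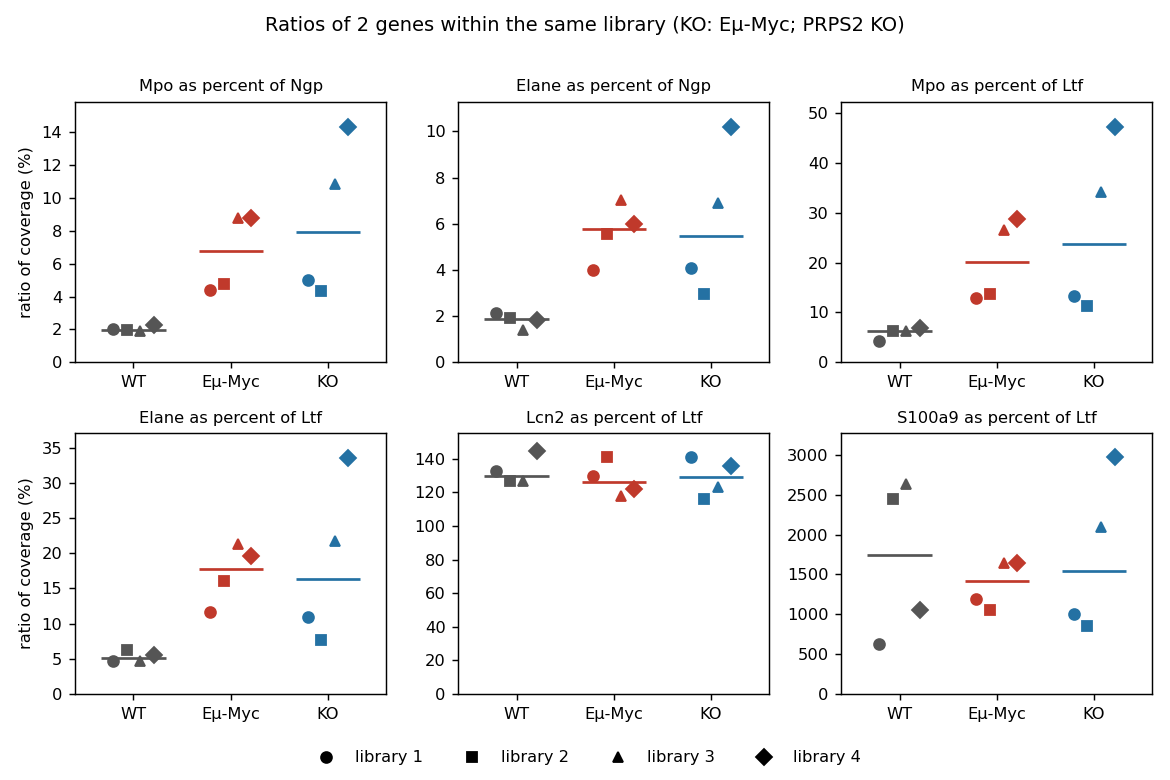
Ratios of the deposited coverage of 2 genes within the same library, in percent (linear axes from 0; lines are group medians, n = 4). For the 4 ratios of Mpo or Elane to Ngp or Ltf every transgenic library lies above every WT library, whereas Lcn2 to Ltf and S100a9 to Ltf overlap.

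In Eμ-Myc against WT the wider lists of myeloid genes had calls among azurophil, monocyte and transcription factor genes. Over all genes tested, 30.4% rose and 24.7% fell. Of 10 azurophil genes, Mpo and Elane among them, 1 rose and 2 fell, with a median log2 fold change of 0.86 (0.54 without the members). The riser was the lysosomal enzyme Gusb (0.72, limma adjusted p = 0.00077), and those that fell included Cst7, a cystatin (-1.84, adjusted p = 0.0188). None of 15 late granule genes (median -0.74) and none of 18 tested genes of the neutrophil cytosol and surface (median -0.87) was called. Without the members these medians were -1.08 and -0.94. The acute-phase gene Hp was at -1.20 and Csf3r, the receptor for granulocyte colony-stimulating factor, at -1.41 (limma adjusted p = 0.203 and 0.104). Of 24 monocyte and macrophage genes 6 fell and none rose, with a median of -0.77; the share that fell is near that of all genes. They included the chemokine receptors Cx3cr1 (-1.82, limma adjusted p = 0.00551) and Ccr2 (-1.35, adjusted p = 0.0269), and Ace (-1.32, adjusted p = 0.0463), all lower in every Eμ-Myc than in every WT library.

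Among 10 myeloid transcription factors, 1 rose and 3 fell in Eμ-Myc against WT, with a median of -0.58, beside 30.4% and 24.7% of all genes. Gfi1, a repressor needed for neutrophil differentiation, was 34.0 ± 3.39 in Eμ-Myc and 20.3 ± 7.61 in WT (SD, n = 4), a log2 fold change of 0.79 (limma adjusted p = 0.015). Cebpa, which directs granulocyte commitment, was at -1.20 (limma adjusted p = 0.024), and both factors had overlapping groups. Id2, an inhibitor of helix-loop-helix factors, was at -0.78 (limma adjusted p = 0.017) and lower in every Eμ-Myc than in every WT library. Gfi1 is also expressed in lymphocytes, and the cells behind these values were not separated.

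Against WT, where 19.7% of all genes rose and 9.6% fell in the knockout group, the same lists gave 1 call, Gusb at 0.65 (limma adjusted p = 0.0295), with medians of 0.11 for azurophil, -1.48 for late granule, -1.79 for cytosol and surface, -1.40 for monocyte and macrophage genes and -1.17 for the transcription factors. Against Eμ-Myc none of these lists had a call in the knockout group, where 1 of all 12551 genes tested was called. The medians in the same order were -0.79, -0.98, -0.81, -0.62 and -0.44. Without the members, azurophil, late granule, cytosol and surface, and monocyte and macrophage genes had medians of 0.04, -1.86, -1.88 and -1.40 against WT. Against Eμ-Myc these were -0.56, -0.79, -0.8 and -0.6.

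Markers of T, NK and dendritic cells differed between Eμ-Myc and WT as well. All 12 T-cell genes tested and all 11 NK-cell genes fell in Eμ-Myc, as did 7 of 12 dendritic-cell genes, where 24.7% of all genes fell. Counts nearer to that share or under it were 3 of 13 eosinophil, basophil and mast-cell genes, 2 of 8 platelet genes, 3 of 11 B-cell genes, 1 of 14 splenic macrophage genes and 0 of 8 erythroid genes. None of these lists had a riser. The summed T-cell list was 833 to 4577 in WT, 183 to 259 in Eμ-Myc and 78.3 to 1103 in the knockout group. The NK-cell list was 497 to 1958, 129 to 338 and 29.7 to 793 in the same order, and the B-cell list 9191 to 17950, 9717 to 11940 and 8767 to 10120. No gene of these 3 lists was at 0 in any library. In the knockout group against WT, 6 of 8 platelet, 1 of 12 dendritic-cell and 1 of 11 B-cell genes fell, beside 9.6% of all genes, and no gene of the other lists was called. The part of these cells in the values of the members was not tested.

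With the group means removed, the neutrophil members and Lyz2 varied closely together over the 12 libraries and Csf1r more loosely. Pearson's r was 0.994 to 0.998 among the 4 late granule genes, 0.999 between S100a8 and S100a9 and 0.988 between Mpo and Elane. It was 0.963 to 0.974 between early and late granule genes, and 0.521 to 0.735 between Csf1r and the granule and calprotectin genes. Lyz2 had an r of 0.911 to 0.919 with the late granule genes, 0.94 with S100a8, 0.949 with S100a9 and 0.796 to 0.827 with the early granule genes, against 0.852 with Csf1r. These are descriptions, since all values of a library share its RNA. For Lyz2 and Csf1r the knockout group weighs most. Their SDs of log2 scaled coverage were 1.68 and 1.65 there, 0.49 and 0.47 in WT, and 0.85 and 0.65 in Eμ-Myc. In WT, Lyz2 was highest in library 1 (3954) and Csf1r in library 3 (307), where Lyz2 was lowest (1804). By the same measure, among 11860 genes, the closest to Mpo and Elane were Prtn3 (0.992), Ms4a3, Tinagl1, Ctsg and Fcnb. Chil3 (0.998), Rab44, Fcnb, Cd177 and Itgb2l were closest to the late granule genes, and Chil3 (0.991), Pglyrp1, Rab44, Crispld2 and Trem3 to the calprotectin genes. For Lyz2 and Csf1r they included Anxa5 (0.995), Vnn3, Cd300a and Cyth4.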

How the data were processed

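Polyadenylated RNA of splenic B lymphocytes was made into directional libraries, per the labels' protocols. The authors deposited 1 table per library with a coverage signal per gene symbol, with 1 decimal; 91.6% of values above 0 were not whole (tolerance 0.001), so no count model was used. The submitters' processing notes name mm10, DESeq and R 4.3.3; the aligner, annotation and definition of coverage are not given in the sources used here. Read depth is unknown, and precision rests on 4 libraries per group, which are biological replicates by their titles.

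Coverage was divided by a factor from unweighted trimmed means of log ratios (30% of ratios and 5% of means trimmed at each end). limma 3.58.1 (trended, robust, two-sided) was fitted to log2(scaled coverage + 0.5) for genes that reached a level of 1 in 4 or more of the 8 libraries. The threshold for a call was 0.05 after Benjamini-Hochberg adjustment across every gene fitted. The method was also run on simulated data with 200 changed genes, and its outcome is not reported here. Tables were made in Python 3.11.15 (pandas 2.3.3, numpy 2.4.6) and figures with matplotlib 3.10.9. Promoters and coordinates are from RefSeq, GRCm38.p6.

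Named were the 10 members, up to 3 called genes per list by size of change (otherwise by level), and the 5 genes most like each role group; some items that this rule names are not reported here. The lists were early granule, late granule, neutrophil cytosol and surface, monocyte and macrophage, splenic macrophage, myeloid transcription factors, dendritic, eosinophil with basophil and mast, B, T, NK, erythroid and platelet. Members and lists were chosen with earlier results of these data known.

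Replicate numbers are shared by the groups. Deviations of same-numbered knockout and Eμ-Myc libraries correlated over 12551 genes with r of 0.657, 0.192, 0.253 and 0.607, so these were treated as pairs in an alternative fit; no label states this pairing, and knockout libraries 2 and 3 correlated best with another number. Other alternatives were scaling by median ratios or by total coverage, pseudocounts of 0.1 and 2, no filter, all 12 libraries in 1 fit, each library left out, and 2 pairs of knockout libraries left out.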

Additional observations from a re-analysis of the deposited data

Results flagged for a closer look

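Eμ-Myc library 2 lay far from the other 3 Eμ-Myc libraries in both early granule genes. Its scaled coverage was 125 for Mpo, with the nearest other library at 59.8, and 146 for Elane, with the nearest at 54.3. For each gene the gap to the nearest library exceeded the 95% critical value of Dixon's ratio for 4 values. Chance gives about 1 such flag in 20 groups, or 1.5 among the 30 groups examined (10 genes in 3 groups).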

How the results depend on the processing

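Over the 3 comparisons, 133 of 150, 148 of 170 and 148 of 170 alternative values for single members kept their sign and stayed unchanged in their call. The count of members called was 0 in every comparison with median-of-ratios scaling, pseudocounts of 0.1 and 2, no filter and all 12 libraries in 1 fit. In Eμ-Myc against WT it became 1 with total coverage scaling (Lyz2 at -1.11, limma adjusted p = 0.033), where 7284 of 12699 genes were called. That scaling moved the median of all genes to -0.185 there and -0.165 in the knockout group against WT. With libraries left out in turn, the count of members called ran from 0 to 2 in Eμ-Myc against WT and from 0 to 1 in the knockout group against WT. It stayed 0 in the knockout group against Eμ-Myc. Over all genes, calls then numbered 5770 to 6857, 600 to 6633 and 1 in the same order. Signs that turned lay in these left-out ranges: in Eμ-Myc against WT, Ngp -0.70 to 0.39, Camp -0.65 to 0.42, Ltf -0.83 to 0.46, Lcn2 -0.90 to 0.41, S100a8 -0.62 to 0.02 and Csf1r -0.52 to 0.00; in the knockout group against WT, Elane -0.30 to 0.97; and against Eμ-Myc, Ltf -1.75 to 0.04 and Lcn2 -1.78 to 0.02.

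A replicate block gave 1 call among the members in Eμ-Myc against WT (Csf1r, -0.31, with a limma adjusted p of 0.0489), where 7184 of 12723 genes were called. The count of members called stayed 0 for the knockout group against WT. In these 2 comparisons not every same-numbered pair had an r over 0.1 (0.23, -0.097, 0.264 and 0.135, and 0.398, -0.423, 0.137 and -0.064), so the libraries were taken to share only a number. In none of the 3 comparisons did every library correlate best with its own number. Over all genes, calls in the knockout group against WT numbered 3716, but 1863 with the block and 6059 with all 12 libraries in 1 fit. The block changed no call in the knockout group against Eμ-Myc.

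Leaving out knockout libraries 3 and 4, or 1 and 2, was added after the levels had been seen. Without 3 and 4 the count was 0 in both comparisons, where 1323 of 12473 genes were called against WT and 524 of 12436 against Eμ-Myc. Against WT the sign turned for Ngp (0.69), Camp (0.49), Ltf (0.83), Lcn2 (0.78), S100a8 (0.12), S100a9 (0.19) and Csf1r (0.49). Against Eμ-Myc it turned for Mpo (0.47), Elane (0.25), Ngp (0.93), Camp (0.67), Ltf (1.13), Lcn2 (1.14), S100a8 (0.45), S100a9 (0.57), Lyz2 (0.65) and Csf1r (0.80). Without 1 and 2 the count was 8 of 10 against WT, with Mpo at -0.66 and Elane at -1.05 the uncalled and turned ones, and 10 of 10 against Eμ-Myc; 8617 of 12295 and 3495 of 12181 genes were then called in all. Both choices select libraries by the outcome and are shown together for that reason. The cause of these dependences was not tested. The unknown read depth limits how far the low coverages can be read, such as those of Mpo and Elane in knockout library 4.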
